A study of Mus musculus with 3 samples.

Results

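Wt1, Crym, Cited1, Cd24a, Cdh11, Rspo1, Six2, Eya1, Sall1 and Osr1 were followed as 10 genes of the metanephric mesenchyme and its nephron progenitors. They were chosen by name, as the probes of the array that carried one of these symbols and no other. Earlier results of these data were known when the genes were chosen, so their counts below are not an independent test. Each of the 10 had 1 probe, out of 21912 gene probes, and all 10 had a value on all 3 arrays, among 14047 genes with such values. The arrays compared metanephroi of 11.5 days post coitum (dpc), the early kidneys, with metanephric mesenchyme of 10.5 dpc. Both were microdissected from CD1 mouse embryos, without disease or treatment per the labels, as pools of both sexes. Amplified RNA of both tissues was hybridised to each two-colour oligonucleotide array, with the dyes in red/green order on arrays 1 and 2 and in green/red order on array 3. The labels do not say whether the arrays came from separate dissections, so the spread between arrays may be technical.

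The metanephric mesenchyme is the block of intermediate mesoderm that becomes the permanent kidney. Wt1 and the transcription regulators Osr1, Pax2, Eya1 and Sall1 keep it competent to call in the ureteric bud, through the ligand GDNF. The mesenchyme then condenses around the bud tips as a cap of progenitors that express Six2 and Cited1, renew themselves and give rise to the epithelium of the nephron. Loss of Wt1, Eya1, Sall1 or Osr1 in the mouse stops the kidney at or near this stage, while loss of Six2 exhausts the progenitors early.

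Each value is a normalized log2 ratio of the 2 tissues on 1 array, so it is a difference between tissues and not a level. No label says which tissue was divided by which. The sign of a ratio therefore separates genes with more RNA in one tissue from genes with more in the other, but names neither tissue. Ratios cannot show whether a defining marker was present in a tissue. In whole tissue, fewer cells of a type and less RNA per cell cannot be told apart. The array values are set beside means ± SD over the 3 arrays, and tests are of the mean against 0 by limma across all 14047 genes.

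The 10 genes held some with positive ratios on every array and some near 0. Crym, Cd24a and Wt1 had mean log2 ratios between 1.75 and 1.91, which is 3.35- to 3.76-fold. Rspo1, Cited1 and Cdh11 were positive on every array at a smaller size, with means from 0.66 to 1.08. Six2, Eya1 and Sall1 had means from 0.09 to 0.27 with arrays on both sides of 0, and Osr1 had -0.36. None of the 10 passed an adjusted p of 0.05 by limma, as was the case for all 14047 genes (0% called), whose adjusted p began at 0.149. With the p left unadjusted, 6 of the 10 passed 0.05 and all 6 were positive. Of all genes 19.6% passed that threshold, 9.89% on the positive side and 9.69% on the negative side. The median of the 10 means was 0.76, against -0.00195 over all genes.

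**Figure D1:**
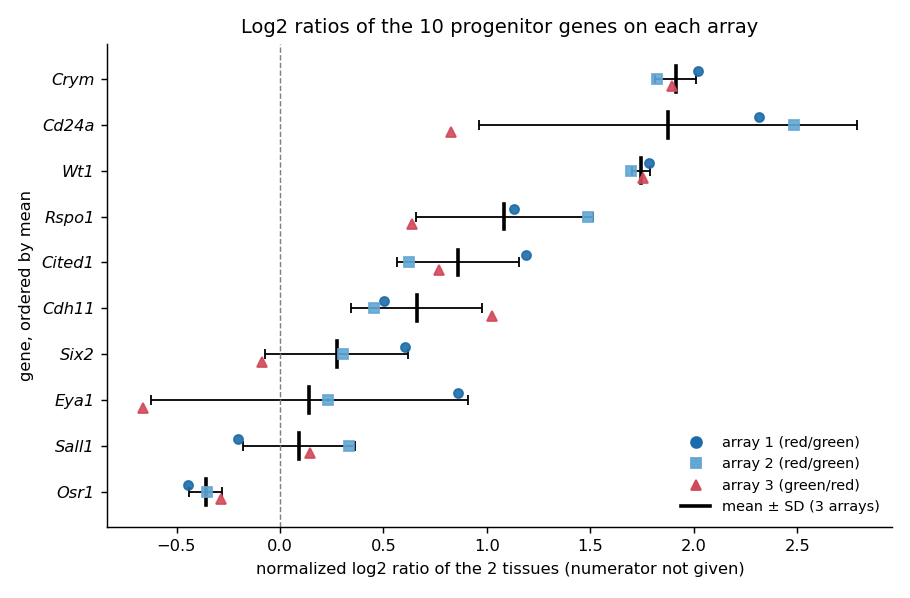
Normalized log2 ratio (x axis) of the 10 progenitor genes (y axis, ordered by mean), with 1 symbol per array and a black bar for the mean ± SD of the 3 arrays. Wt1 and Crym have their 3 arrays close together between 1.70 and 2.02, while the array 3 values of Cd24a, Eya1 and Six2 lie below those of arrays 1 and 2.

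Wt1, a zinc finger transcription factor without which the mesenchyme dies, had log2 ratios of 1.78, 1.70 and 1.76 on arrays 1, 2 and 3. Its mean was 1.75 ± 0.04 (SD, n = 3), with a 95% moderated interval of 1.37 to 2.12 and an adjusted p of 0.149 by limma. The 3 arrays lay within 0.09 of each other whatever the dye order. Of all genes, 0.548% had a higher mean and 1.69% a smaller SD.

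Crym, a thyroid hormone binding protein that is also a ketimine reductase, had 2.02, 1.82 and 1.89, a mean of 1.91 ± 0.10 and an adjusted p of 0.149 by limma. Its mean was the highest of the 10, and 50 of all genes had a higher one. Cd24a, a glycosylphosphatidylinositol-anchored surface protein of many immature cells, had 2.32 and 2.48 on arrays 1 and 2 and 0.82 on array 3. Its mean of 1.87 ± 0.91 was close to that of Crym with a far wider spread, and its adjusted p was 0.170. In the order of the means, Cd24a did not differ from Crym or Wt1 beyond the spread, since Crym exceeded Cd24a on 1 array and Cd24a exceeded Wt1 on 2. Crym exceeded Wt1 on all 3 arrays, by 0.17 ± 0.06. Wt1 exceeded Rspo1, the next in order, on all 3 arrays, by 0.66 ± 0.45.

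**Figure D2:**
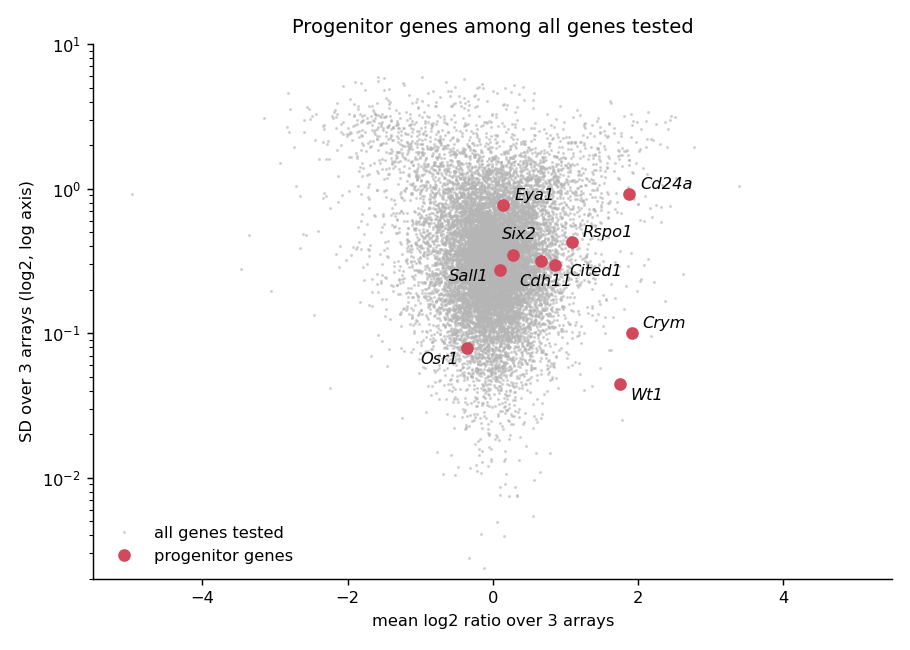
Mean log2 ratio (x axis) against the SD over the 3 arrays (y axis, log scale) for all 14047 genes (grey) and the 10 progenitor genes (red). Wt1 and Crym combine a large mean with a small SD, Cd24a has a mean of the same size at an SD of 0.91, and Six2, Sall1 and Eya1 lie inside the cloud of all genes.

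Rspo1, a secreted amplifier of Wnt signals, had 1.13, 1.49 and 0.64, with a mean of 1.08 ± 0.43. Cited1, a transcriptional co-regulator that binds CBP and p300 and marks the cap mesenchyme, had 1.19, 0.62 and 0.77, with a mean of 0.86 ± 0.29. Cdh11, a cadherin of mesenchymal cells, had 0.50, 0.45 and 1.03, with a mean of 0.66 ± 0.32. Their adjusted p by limma were 0.165, 0.168 and 0.203. All 3 genes stayed above 0 on every array. They did not differ from each other beyond their spread, as Rspo1 exceeded Cited1 on 1 array and Cited1 exceeded Cdh11 on 2.

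Six2, a homeodomain transcription factor that holds the progenitors undifferentiated, had 0.60, 0.30 and -0.09. Its mean of 0.27 ± 0.35 had a 95% interval of -0.28 to 0.83 and an adjusted p of 0.496 by limma. Eya1, a phosphatase and co-activator of Six2 and its relatives, had 0.86, 0.23 and -0.66, a mean of 0.14 ± 0.76 and an interval of -0.84 to 1.12. Sall1, a zinc finger transcription factor of the same progenitors, had -0.20, 0.34 and 0.14, a mean of 0.09 ± 0.27 and an interval of -0.40 to 0.59. The intervals of Six2, Eya1 and Sall1 span differences of either sign, and that of Eya1 reaches a log2 size above 1. The adjusted p were 0.845 for Eya1 and 0.796 for Sall1.

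Osr1, a zinc finger transcription factor of the early intermediate mesoderm that precedes the others, had -0.44, -0.35 and -0.28. Its mean of -0.36 ± 0.08 had a 95% interval of -0.74 to 0.03 and an adjusted p of 0.276 by limma. It was the only 1 of the 10 with a negative mean, and all of its arrays were below 0. Wt1 exceeded Six2 by 1.47 ± 0.34 and Osr1 by 2.10 ± 0.11 on the log2 scale, on all 3 arrays in both cases. Sall1 and Osr1, the last neighbours in the order, differed by 0.45 ± 0.22 on all 3 arrays, while Cdh11 and Six2, Six2 and Eya1, and Eya1 and Sall1 did not differ in one direction over the arrays.

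Counted over the arrays, 7 of the 10 genes kept one sign on all 3, against 45.5% of all genes. Of these, 6 genes were positive on all 3, as 22.9% of all genes were. Osr1 was negative on all 3, as were 22.5% of all genes. A log2 ratio of at least 0.5 on every array was reached by Wt1, Crym, Cd24a, Rspo1 and Cited1, which makes 5 of 10, against 4.68% of all genes. With the sign of array 3 reversed, 2 of the 10 kept one sign, Six2 and Eya1, against 25.6% of all genes, and 0 of the 10 reached 0.5 on every array, against 1.6%. An exact sign-flip permutation test of 1 gene over 3 arrays, two-sided, cannot go below a p of 0.25, so no such test is given.

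Array 3 differed from arrays 1 and 2 for some of these genes. Since array 3 alone had the green/red order, dye order and the array itself cannot be told apart. Of the 10 genes, 4 lay lower on array 3 than on both other arrays, against 45.0% of all genes. The mean of the red/green arrays 1 and 2 was 1.74 for Wt1, against 1.76 on the green/red array 3, and 1.92 for Crym, against 1.89. For Cd24a it was 2.40 against 0.82, and for Eya1 0.54 against -0.66. With each dye order given the same weight, Crym had a mean of 1.91, Wt1 1.75 and Cd24a 1.61. Rspo1 had 0.97, Cited1 0.84 and Cdh11 0.75 on that weighting. In the fit with a dye term, 6 of 10 stayed past the unadjusted threshold, against 21.3% of all genes. Eya1 then had -0.06. Array 3 correlated weakly with the others across the 14047 genes, which are not independent replicates, with Pearson's r at 0.0644 for array 1 and 0.0219 for array 2, while arrays 1 and 2 had 0.365. Spearman's rho was higher, at 0.258 for arrays 1 and 3 and 0.208 for arrays 2 and 3, while arrays 1 and 2 had 0.501. The labels do not say whether array 3 was already turned to the direction of the others. As deposited, it correlated positively with both of them. On all 3 arrays 45.5% of all genes then kept one sign, against 25.6% with array 3 reversed. If array 3 was not already turned, its sign has to be reversed. In that case 0 of the 10 pass the unadjusted threshold, against 5.55% of all genes. Wt1 then has 0.58, Crym 0.65, Cd24a 1.32 and Rspo1 0.66, and Cdh11 has -0.0234. Without array 1, only Wt1 and Crym passed the threshold, 2 of 10, against 8.23% of all genes. Without array 2, 5 of 10 passed, against 10.3% of all genes. Without array 3, 5 of 10 passed, against 21.0% of all genes, Cdh11 being lost in both cases.

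Promoter windows of 300 bases from RefSeq on GRCm38.p6, each spanning a transcription start, were at hand for 4 of the 10 genes. The windows of 3 of them are shown because Rspo1 and Cited1 had positive ratios on every array while Six2 did not. The windows were searched on both strands for GNGTGGGNG, a motif of the zinc finger protein WT1, in which N is any base, and for TCAGGTTTC, the MEF3 motif bound by sine oculis homeobox proteins. Capitals mark the WT1 motif. The sequences read 5′ to 3′ in the direction of transcription. Rspo1 lies at chr4:124986180-124986479 on the plus strand, Cited1, for 1 of its 3 starts, at chrX:102251794-102252093 on the minus strand, and Six2 at chr17:85688205-85688504 on the minus strand.
Rspo1: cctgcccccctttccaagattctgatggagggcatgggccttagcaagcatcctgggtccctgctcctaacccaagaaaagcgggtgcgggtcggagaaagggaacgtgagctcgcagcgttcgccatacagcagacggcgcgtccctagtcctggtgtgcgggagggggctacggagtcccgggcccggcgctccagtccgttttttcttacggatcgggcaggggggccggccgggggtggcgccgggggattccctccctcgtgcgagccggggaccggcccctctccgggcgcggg
Cited1: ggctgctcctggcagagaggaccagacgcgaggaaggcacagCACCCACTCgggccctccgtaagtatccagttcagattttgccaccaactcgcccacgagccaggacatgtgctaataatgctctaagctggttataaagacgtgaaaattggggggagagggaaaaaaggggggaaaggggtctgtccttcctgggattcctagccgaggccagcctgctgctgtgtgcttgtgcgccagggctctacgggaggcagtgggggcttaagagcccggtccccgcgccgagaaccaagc
Six2: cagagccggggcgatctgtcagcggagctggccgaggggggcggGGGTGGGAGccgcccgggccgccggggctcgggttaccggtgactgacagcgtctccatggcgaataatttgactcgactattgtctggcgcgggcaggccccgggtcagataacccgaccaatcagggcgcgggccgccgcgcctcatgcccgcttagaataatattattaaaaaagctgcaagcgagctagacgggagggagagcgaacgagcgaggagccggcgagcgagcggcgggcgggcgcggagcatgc
The WT1 motif began at -208 from the start in the printed Cited1 window, while the windows at the other Cited1 starts had 0 matches. It began at -206 in the Six2 window, and 1 of the 3 Sall1 windows held it at -126. The Rspo1 window had 0 matches. Of 32851 windows of the same length, 14.3% held this motif, a share per window and not per gene. Their median content of G and C was 52.7%. The printed windows were richer, with 69% for Rspo1, 59.7% for Cited1 and 67.3% for Six2, and the Sall1 window with the motif had 79.7%. The 14.3% was not matched for this content. The MEF3 motif had 0 matches in all windows of the 4 genes and was in 0.429% of the 32851. Matches of these letters lay in genes with positive ratios and in genes near 0.

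In the Cited, Sall, Rspo and cadherin families, the relatives of the 10 genes on the array did not share one sign. Cited2, like Cited1 a partner of CBP and p300, had 1.09, 1.61 and 1.16, a mean of 1.29 ± 0.28. Cited4 was negative on every array, with a mean of -0.78 ± 0.28, and Cited1 exceeded it by 1.64 ± 0.38 on all 3 arrays. Sall2 had 0.44 ± 0.10 and lay above Sall1 on all 3 arrays. Sall3, a zinc finger relative also known from limb and nervous system, had -2.34, -1.11 and -1.42, and Sall1 exceeded it by 1.72 ± 0.37. Sall4 had a value on 2 arrays, -1.22 on array 1 and -2.57 on array 3, and was not tested. Osr2 had -0.05 ± 0.23 with arrays on both sides of 0.

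Six4 had -0.73 ± 0.90 and Six5 had -0.34 ± 0.48, both wider in spread than Six2. Eya3 was positive on every array at 0.28 ± 0.17, Eya4 had 0.42 ± 0.53, and Eya2 had -0.16 on array 1 and -0.44 on array 3. Rspo3 had 1.41, 0.68 and 0.50, a mean of 0.86 ± 0.48, which did not differ from Rspo1 beyond the spread (0.22 ± 0.55). Rspo2 had 1.30 and 1.56 on arrays 1 and 2 but -1.42 on array 3, and Rspo4 had -0.28 ± 0.60. The highest cadherin was Cdh16, the kidney-specific cadherin of tubular epithelium, at 2.06, 1.79 and 2.38, and Cdh11 minus Cdh16 was -1.42 ± 0.12, below 0 on all 3 arrays. Cdh6, which marks early nephron epithelium, had 0.58 ± 0.13 from its only probe with values on all arrays. Its other probe, not tested, had -1.49 on array 1, no value on array 2 and 0.48 on array 3. Cdh2 at -0.46 ± 0.35, Cdh3 at -0.36 ± 0.50 and Cdh5 at -0.18 ± 0.21 had negative means, and Cdh1 at 0.07 ± 0.45 and Cdh4 at -0.11 ± 0.49 lay near 0.

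**Figure D3:**
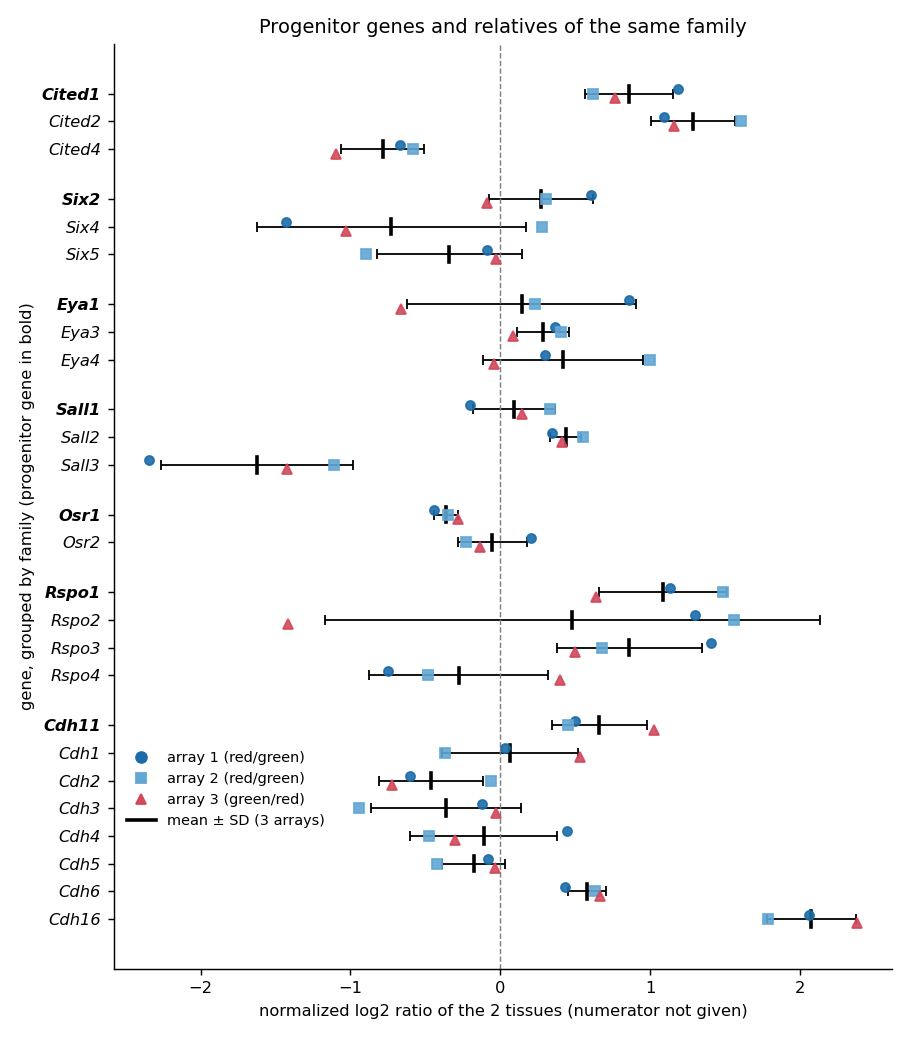
Normalized log2 ratio (x axis) of the progenitor genes (bold) and their measured relatives by family (y axis), with 1 symbol per array and a black bar for the mean ± SD. Cited2 and Rspo3 lie on the side of Cited1 and Rspo1, while Cited4 and Sall3 are negative on all 3 arrays.

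Of the other regulators of the mesenchyme, 10 genes of the Pax, Eya, Dach and Hox network and its sine oculis relatives were measured on all arrays, with a median of -0.25. At an unadjusted p under 0.05, 1 passed on the positive side and 1 on the negative side, together 20%, against 19.6% of all genes. They were Dach2, a co-repressor that works with Eya1 and its relatives, at 0.77 ± 0.29, and Pax8, a paired-box factor of the nephric lineage, at -0.66 ± 0.11. Pax2, which switches on Gdnf in the mesenchyme, had -0.05, 0.66 and -1.61 and so gave no usable sign. Hoxa11 had -0.36 ± 0.10 and Hoxd11 -0.08 ± 0.12.

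Among 25 other genes reported in the mesenchyme the median was 0.02, and 3 passed the unadjusted threshold, all positive. That is 12%, against 19.6% of all genes on either side and 9.89% on the positive side. Mecom, a zinc finger regulator, had 1.64, 1.72 and 1.08, a mean of 1.48 ± 0.35, Hey1 had 0.51 ± 0.22 and Capn6 had 0.57 ± 0.35. Spry1, an antagonist of receptor tyrosine kinase signalling, had -0.44 ± 0.23. Gdnf, the ligand that attracts the bud, was positive on every array at 0.32 ± 0.10. The homeobox gene Uncx had 2 probes that did not match, 1 at 1.54 ± 0.41 and 1 at -0.40 ± 1.53, and this pair was picked out after its values were seen.

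Of 17 measured partners and reported targets of Wt1, 3 passed at an unadjusted p under 0.05, all positive, and the list's median was 0.05. These 3 make 17.6%, against 19.6% of all genes on either side and 9.89% on the positive side. Bmper, a secreted modulator of BMP signals, had 1.66, 2.07 and 1.77, with a mean of 1.84 ± 0.21. Plxdc2, a plexin domain membrane protein, had 0.95 ± 0.15, and its 2 probes gave 1.18 ± 0.40 and 0.71 ± 0.10. Bcl2, which protects cells from death, had 0.68 ± 0.30. Nphs1, the nephrin of podocytes, had 0.44 ± 0.30. The adjusted p by limma were 0.149 for Bmper, 0.157 for Plxdc2, 0.193 for Bcl2 and 0.301 for Nphs1.

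Of 14 measured Sall and Osr relatives and subunits of NuRD, the chromatin remodelling complex that Sall1 recruits, 6 passed the unadjusted threshold, 3 on each side, with a median of -0.23. The remodeller Chd3 at 0.68 ± 0.40 and the deacetylase Hdac2 at 0.43 ± 0.10 were positive, as was Sall2. Rbbp7 at -0.47 ± 0.13 and Gatad2a at -0.44 ± 0.12 were negative, as was Sall3. The 2 probes of Chd3 had means of 1.20 and 0.15. Of 13 R-spondins and Wnt receptors 3 passed, Rspo3, the receptor-clearing ligase gene Rnf43 at 1.00 ± 0.79 and the receptor gene Fzd8 at -0.48 ± 0.19, with a median of 0.14. Fzd2 had 0.51 ± 0.33. The shares that passed were 42.9% for Sall, Osr and NuRD and 23.1% for R-spondins and Wnt receptors, against 19.6% of all genes.

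Of 8 genes of the Cited family and their partners, 4 passed, 2 on each side, with a median of 0.07. Besides Cited2 and Cited4 they were Hif1a, the oxygen-regulated factor that Cited2 restrains, at 1.09 ± 0.35, and Tfap2b, which the Cited proteins co-activate, at -0.78 ± 0.26. Of 10 genes of thyroid hormone transport and action, the field of Crym, 2 passed, the co-activator gene Med1 at 0.88 ± 0.44 and the carrier gene Ttr at -1.13 ± 0.15, and the list's median was -0.14. Slc16a10 had 0.94 ± 0.98 and Dio1 had -0.30 ± 0.12, and the receptor gene Thra had 0.02 ± 0.37. Of 10 cadherins and other surface genes 3 passed, Cdh16, Cdh6 and the catenin gene Ctnna1 at -0.58 ± 0.18, with a median of -0.03. The shares that passed were 50% for the Cited list, 20% for thyroid hormone and 30% for surface genes, against 19.6% of all genes.

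**Figure D4:**
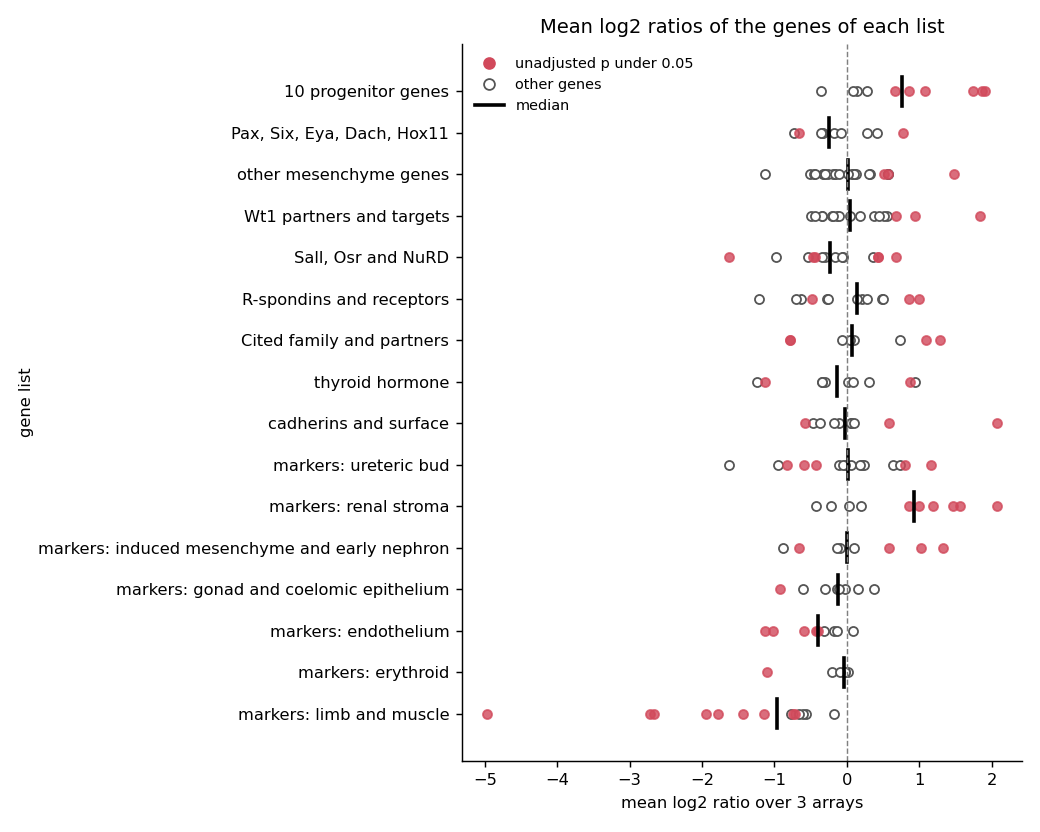
Mean log2 ratio over the 3 arrays (x axis) of every measured gene of each list (y axis), with genes at an unadjusted p under 0.05 in red and the list's median as a black bar. The 10 progenitor genes have a median of 0.76 and renal stroma markers 0.93, while limb and muscle markers have -0.96.

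Markers of stroma, of limb and muscle and of endothelium had ratios mostly of one sign. Renal stroma markers, which mark the interstitial lineage beside the cap, had a median of 0.93, and 6 of 10 passed at an unadjusted p under 0.05, all positive, and the list's means ran from -0.42 to 2.07. They included Foxd1 at 1.56 ± 0.17, Tcf21 at 1.47 ± 0.17, Meis1 at 1.00 ± 0.07 and Hic1 at 2.07 ± 0.60. Of the 10 stroma markers, 8 had positive means and 2 negative ones. The 2 were Pdgfra at -0.42 ± 0.25 and Aldh1a2 at -0.21 ± 0.17, both below 0 on all 3 arrays. Limb and muscle markers had a median of -0.96, and 9 of 14 passed, all negative, led by Acta1 at -4.96 ± 0.92, with Pitx1 at -1.95 ± 0.35, Tcf15 at -1.78 ± 0.49 and Myl1 at -2.66 ± 0.89. Endothelial markers had a median of -0.40 with 5 of 9 passing, all negative: Cldn5 at -1.12 ± 0.31, Sox17, Pecam1, Plvap and Tek. Of all genes 9.89% passed on the positive side and 9.69% on the negative side. With the sign of array 3 reversed, the medians were 0.39 for stroma, -0.47 for limb and muscle and -0.14 for endothelium, against 0.46 for the 10 progenitor genes. The part of these cells in the ratios of the 10 genes was not tested.

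Ureteric bud markers had 2 positive and 3 negative genes past the unadjusted threshold of 16 measured, and a median of 0.02. Calb1 at 1.16 ± 0.10 and Etv4 at 0.81 ± 0.18 were positive, and Krt8 at -0.59 ± 0.09, Krt19 at -0.83 ± 0.54 and Ret at -0.43 ± 0.11 were negative. Of 8 markers of induced mesenchyme and early nephron, 3 passed on the positive side, C1qtnf12 at 1.33 ± 0.23, Wnt4 at 1.03 ± 0.06 and Cdh6, while Pax8 was negative. Their median was 0.01. Wt1 and Osr1 are also expressed in gonad and coelomic epithelium. Of 8 such markers 1 passed, Star at -0.93 ± 0.61, the list's median was -0.12, and Msln had 0.37 ± 0.30, Amh -0.29 ± 0.21 and Nr5a1 -0.60 ± 1.39. Of 7 erythroid markers 1 passed, Klf1 at -1.10 ± 0.14, with a median of -0.04, while Alas2 had -0.20 ± 0.20, Gata1 had -0.09 ± 0.31 and Hbb-bh1 had -0.04 ± 0.45. The shares that passed were 31.25% for bud, 50% for early nephron, 12.5% for gonad and 14.3% for erythroid markers, against 19.6% of all genes.

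The genes with the pattern nearest to Wt1 were found by the Euclidean distance of the 3 log2 ratios among 14046 other genes. They were the iron exporter gene Slc40a1 at a distance of 0.0635, the autophagy gene Atg101 at 0.199, the carrier gene Slc22a16 at 0.210, the respiratory complex III subunit gene Uqcrb at 0.263 and 9430052C07Rik at 0.277. Slc40a1 had 1.80, 1.75 and 1.77. Nearest to Crym were again Slc40a1 at 0.257 and Atg101 at 0.289, then Mgp, a matrix inhibitor of calcification, at 0.299. Nearest to Six2 were Pdrg1 at 0.0405, 3110009F21Rik at 0.0506 and Emc7 at 0.0642. Of all genes, 27.2% had a higher mean than Six2.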

How the data were processed

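The deposited table holds log2 ratios of the 2 channels of each array. Imagene 5.5 read the images, and print-tip lowess (20% of the data per point, control channel values under 10 set to 10) and between-array normalization followed, per the labels. The direction of the ratio, a genome build and other filters are unstated there. Array medians lay between -0.06 and 0.05. Spot intensities were not analysed here, and precision is limited by the number of arrays.

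Probes with 1 symbol in the platform annotation (16656, against 137 with several and 5119 with none) were used, and updating symbols through Entrez identifiers changed 0. Probes of a gene were averaged per array. For each of 14047 genes, limma 3.58.1 (R 4.3.3; lmFit, eBayes, two-sided) tested whether the mean over 3 arrays was 0, with Benjamini-Hochberg adjustment. The fit was also run on simulated data with independent normal errors and no dye effect, so that run does not cover the dye order of these arrays. Plots used Matplotlib 3.10.9 in Python 3.11.15. The genes, lists and alternatives were chosen with earlier results of these data known. Named are all 10 genes, their family relatives, up to 4 genes per list by smallest unadjusted p, and the nearest patterns to Wt1, Crym and Six2. Other genes named from a list were chosen after their values were seen. Alternatives were centring, scaling, a dye term, array 3 turned, the median of probes, single probes, 2 arrays, robust or no moderation, array weights, limited extremes and leaving out each array.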

Additional observations from a re-analysis of the deposited data

How the results depend on the processing

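The count at an adjusted p of 0.05 by limma was 0, for all genes and for the 10, under every alternative run, and the smallest adjusted p of any of the 10 was 0.0764. At an unadjusted p under 0.05, 2750 genes passed, against 779 after reversal of array 3 and 1156 to 2943 when any single array was omitted. Of the 10 genes 6 passed, against 0 after that reversal and 2 to 5 when any single array was omitted. Without variance moderation 5 passed, against 16.8% of all genes, with Cd24a and Cdh11 lost and Osr1 gained on the negative side. With array weights 7 passed, Osr1 added, but 28.3% of all genes also passed then, up from 19.6% in the main fit. Of 140 recomputed means of the 10 genes 134 kept their sign. The 6 that did not were Cdh11 at -0.0234 and Sall1 at -0.00320 after the reversal of array 3, Eya1 at -0.0587 with the dye term, Sall1 at -0.0346 with array weights, and 1 value each of Eya1 and Sall1 with an array left out. Leaving out single arrays gave Six2 means from 0.108 (without array 1) to 0.454 (without array 3), Eya1 means from -0.215 (without array 1) to 0.545 (without array 3) and Sall1 means from -0.0299 (without array 2) to 0.239 (without array 1). Reversing 1 array of 3 and leaving out an array change the input by construction, and the cause of the other changes was not tested. No paired analysis was possible because the arrays form 1 group, so no second group shares their replicate numbers for a block, and each log2 ratio is already a difference within an array.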
